A study of Mus musculus with 9 samples.

Results

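Open chromatin of Bcat_KO and PRMT1_KO was compared in LSK cells, the lineage-negative, Sca-1-positive, Kit-positive fraction of mouse blood-forming tissue that holds stem cells and early progenitors. Each group had 2 ATAC-seq libraries, 4 of the 9 of the series, and the others were 2 of WT, 2 of HOXA9_KO and 1 of dKO. In ATAC-seq the Tn5 transposase cuts open DNA, so a pile of reads (a peak) marks an accessible site. In Bcat_KO the lost gene was β-catenin (Ctnnb1), in PRMT1_KO it was Prmt1, in HOXA9_KO Hoxa9, and in dKO both β-catenin and Hoxa9. The titles name the mutants KO, whereas the genotype tags name them knockdown. The labels give neither the means of loss, the deleted part, a driver, the age of the mice nor whether a group is made of libraries that are from different mice, and the series text mentions only Prmt1KO primary transplanted mice as a source of cells. Peaks of the 4 lists that shared at least 1 bp were joined into 62929 regions on the 19 autosomes. Within each list peaks were ranked by the authors' −log10 p-value and each list was cut to its strongest 38981, all that the smallest of the 4 holds. A region differed when both libraries of one group had it in their strongest 19490 peaks and it was outside the strongest 38981 of both libraries of the other. By this rule 65 regions (0.103% of 62929) were open in Bcat_KO only and 43 (0.0683%) in PRMT1_KO only, 108 in all (0.172%).

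β-catenin enters the nucleus when Wnt ligands bind Frizzled and Lrp5/6 receptors, and there it works as a coactivator of TCF/LEF factors, which bind DNA. Prmt1 places most of the asymmetric dimethyl marks on arginines, including a mark on histone H4 that is linked to active transcription, and it also modifies proteins of DNA repair and RNA processing. Both proteins act on chromatin through partners rather than by reading a DNA sequence themselves, and both have been studied in blood stem cells and leukaemia.

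RefSeq sequences (build GRCm38.p6) are shown for 3 starts named in the results below. They are the 250 bases before the start of Olfm4 (open in Bcat_KO only; chr14:80000052-80000301, plus strand), of the internal start of Akna (open in PRMT1_KO only; chr4:63403446-63403695, minus strand) and of Ccdc6 (open in both, far stronger in PRMT1_KO; chr10:70096871-70097120, plus strand). Capitals mark matches to the motifs searched.
Olfm4: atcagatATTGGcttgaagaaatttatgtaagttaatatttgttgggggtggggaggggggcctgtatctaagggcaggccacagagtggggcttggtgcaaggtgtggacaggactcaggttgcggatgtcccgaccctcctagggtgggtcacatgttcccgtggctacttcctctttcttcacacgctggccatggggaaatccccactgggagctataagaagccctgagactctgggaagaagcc
Akna: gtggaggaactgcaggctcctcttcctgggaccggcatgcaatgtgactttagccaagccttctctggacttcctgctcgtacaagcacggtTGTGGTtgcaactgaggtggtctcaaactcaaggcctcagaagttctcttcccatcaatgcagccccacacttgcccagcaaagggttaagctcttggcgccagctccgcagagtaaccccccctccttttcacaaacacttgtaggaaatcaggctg
Ccdc6: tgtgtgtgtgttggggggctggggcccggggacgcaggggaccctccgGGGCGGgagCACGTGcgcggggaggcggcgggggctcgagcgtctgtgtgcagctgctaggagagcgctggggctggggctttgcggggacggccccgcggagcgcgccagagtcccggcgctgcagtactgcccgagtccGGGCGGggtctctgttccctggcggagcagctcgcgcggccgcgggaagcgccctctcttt
The Olfm4 stretch had 54% GC and 4 CpG, with the NF-Y letters (as ATTGG) 243 bases before the start. The Akna stretch had 54.4% GC and 5 CpG, with the RUNX letters TGTGGT 158 bases before the start. The Ccdc6 stretch had 75.6% GC and 30 CpG, with the SP/KLF letters GGGCGG at 202 and 61 bases and the E-box CACGTG at 193 bases before the start. Of all 20085 RefSeq promoters on autosomes (250 bases before to 50 after a start, both strands searched), 38.1% held the NF-Y letters, 14.8% the RUNX letters, 47.0% the SP/KLF letters and 7.89% the E-box.

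TCF/LEF letters (ATCAAAG, or CTTTGAT on the other strand) are shown because β-catenin acts through these factors. Of promoters in shared regions, 2.23% held them, and of all promoters 3.26%. They lay in 7 of 190 promoters (3.68%; 6 genes) whose region ranked at least 1.5 times higher in Bcat_KO, and in 1 of 210 (0.476%; Btg3) whose region ranked higher in PRMT1_KO. The sites were Cldnd1 (chr16:58727668-58727694, plus), Edar (chr10:58675913-58675939, minus), Gng7 (chr10:81015159-81015175, minus), Smim27 (chr4:40269329-40269354, plus), Zfp473 (chr7:44748342-44748368, minus), Zfp719 (chr7:43579376-43579402, plus) and Btg3 (chr16:78377132-78377155, minus). Letters of a counted promoter may lie outside its region. Those of Smim27 lie before the shifted region at that start (chr4:40269499-40270038). Ranked by fold enrichment instead, that region kept its call and the Btg3 region lost it. Zfp473 and Zfp719 lie within 5 Mb of the targeted Prmt1 gene, and the part of this closeness in the counts was not tested. Capitals mark the motif.
Cldnd1: tctcggctaaATCAAAGcctttgacta
Edar: gcccaacttgCTTTGATagaagcaaga
Gng7: CTTTGATtgcaccattg
Smim27: ggacggcaaCTTTGATtcttccaccg
Zfp473: acagccaccaATCAAAGgtcctgttgt
Zfp719: aaccgttgcgCTTTGATgcttgcctct
Btg3: gggagagcccATCAAAGcagaatc

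The lists held 42260 and 44412 autosomal peaks in Bcat_KO and 43531 and 38981 in PRMT1_KO. The background depth recovered from the peaks was 9.61 and 9.82 reads per kb in Bcat_KO and 11.2 and 10.9 in PRMT1_KO, so both PRMT1_KO libraries were deeper than both Bcat_KO libraries. It was 8.27 and 8.67 in HOXA9_KO and 7.38 and 6.29 in WT. With 2 libraries against 2, the smallest two-sided exact permutation p is 0.333, so no p is given for any region, and differences are described by the values of every library. Genes of stem and progenitor cells were looked at first. Here and below, a gene end is either boundary of a gene, its start or its finish. Of 18 LSK genes, 11 had a peak within 1 kb of a gene end in all 4 libraries (Kit, Cd34, Flt3, Hlf, Mecom, Meis1, Runx1, Tal1, Lyl1, Lmo2 and Erg). Ly6a, which encodes Sca-1, had none. Of the lists for other cell types, such a peak was found for 4 of 6 erythroid genes on autosomes, 5 of 7 megakaryocyte, 5 of 10 myeloid, 3 of 8 B lymphoid, 1 of 8 T and NK, 1 of 6 mast cell and eosinophil, 3 of 5 dendritic and 3 of 8 stromal and endothelial genes. The LSK share was below those of the erythroid and megakaryocyte lists, so these counts do not check the identity of the cells. In bulk libraries, a smaller share of cells with an open site and a less open site in each cell cannot be told apart.

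Most strong sites were common to both mutants. Of the 62929 regions, 25617 (40.7%) were among the strongest 38981 peaks of all 4 libraries and 14245 (22.6%) among the strongest 19490 of all 4. Of the 16349 regions among the strongest 19490 of both Bcat_KO libraries, 65 (0.398%) fell outside both PRMT1_KO lists, and of 16587 such regions of PRMT1_KO, 43 (0.259%) fell outside both Bcat_KO lists. The Jaccard index (regions held by both libraries over regions held by either) was 0.656 between the Bcat_KO libraries and 0.679 between the PRMT1_KO libraries. Across the groups it ran from 0.629 to 0.658 (mean 0.643, SD 0.0119, over 4 pairs of libraries). The cross pair of Bcat_KO replicate 2 and PRMT1_KO replicate 1, at 0.658, was thus as alike as the Bcat_KO replicates were to each other.

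The differing regions were of middling strength and narrower than the shared regions. The fold enrichment, which is the authors' own value for the height of a peak over its local background, averaged over the 2 libraries that held a region, had a median of 7.90 (range 3.90 to 15.3) for regions open in Bcat_KO only and 7.85 (3.89 to 10.5) for those open in PRMT1_KO only. The median was 8.16 over the shared regions and 5.16 over all regions. Median widths were 326 and 370 bp, against 357 bp for all regions, 652 bp for shared regions and 745 and 744 bp for all strong regions of Bcat_KO and PRMT1_KO. A width is the span of all peaks joined into a region, and most members joined peaks of only 2 of the 4 lists. The strong regions also had a higher median fold, 10.2 and 10.1, so the widths are not compared at equal strength. The summits rested on 15 to 48 reads (median 19) in Bcat_KO only and 16 to 54 (median 21) in PRMT1_KO only, so few reads stand behind each one. In the other group, 63 of the 65 and 36 of the 43 had no peak at all in the full lists, and 2 and 7 had a weak peak in 1 library. Because the rule used these values, they describe the members and support nothing. At its edge, the last region inside for Bcat_KO was at Gng12 (rank 19288; 6.58- and 6.71-fold) and the first outside at Gm46353 (rank 19491; 6.87- and 6.48-fold). For PRMT1_KO the last inside was chr17:9773817-9774066 (rank 19476; 8.88- and 6.42-fold) and the first outside at Kank4 (rank 19599; 7.30- and 8.24-fold).

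**Figure D1:**
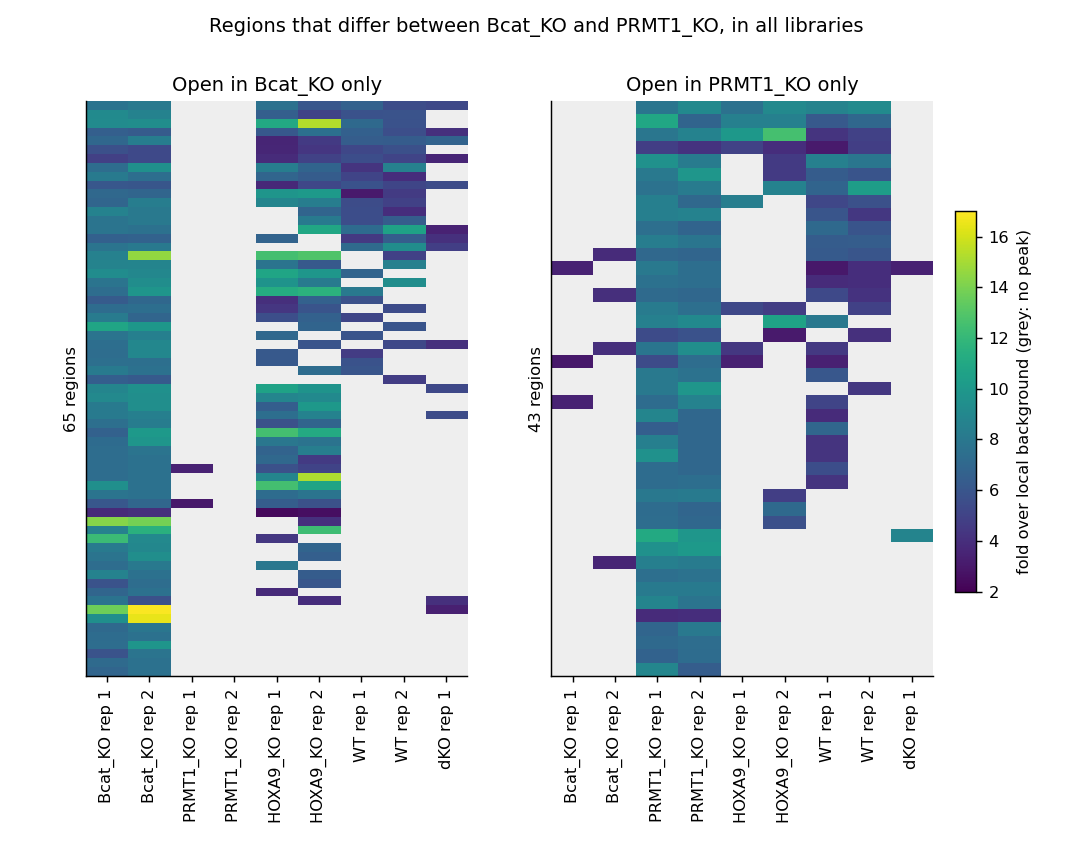
Fold over local background at each of the 65 regions open in Bcat_KO only (left) and the 43 open in PRMT1_KO only (right), 1 line of colour per region, in all 9 libraries; grey means no peak. Colour in the WT, HOXA9_KO and dKO columns, which the rule did not use, shows the 35 of 65 and the 5 of 43 regions that both HOXA9_KO libraries held.

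Among the strongest regions open in Bcat_KO only, the highest folds lay away from genes or beside them rather than at their ends. A region 76.3 kb from the nearest gene, chr9:3258600-3258941, had 13.7- and 16.9-fold enrichment in the 2 Bcat_KO libraries and otherwise only a 3.32-fold peak in dKO. A region 8.85 kb from Cks1brt (chr8:85142516-85143071) had 14.2- and 13.9-fold, with 4.10-fold in HOXA9_KO replicate 2 and no peak in WT. Heatr3, which encodes a factor for the import of ribosomal proteins, had a region 3.27 kb away (chr8:88175222-88175739) with 9.50- and 16.5-fold and no peak in any other library of the series; its Bcat_KO values were spread more widely (SD 4.93, n = 2) than those of the other named genes.

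Several of these regions were also open in HOXA9_KO. In the body of Opcml, a neural cell adhesion gene (chr9:28289776-28290051), Bcat_KO had 8.81- and 9.51-fold and HOXA9_KO 10.7- and 9.70-fold, with 5.28-fold in dKO and none in WT. Near Cutc, a gene of copper homeostasis (2.74 kb; chr19:43771382-43771824), Bcat_KO had 9.07- and 9.39-fold and HOXA9_KO 8.83- and 9.10-fold, again with none in WT. The values of Bcat_KO and HOXA9_KO overlapped at Cutc, and at Opcml both HOXA9_KO values were slightly above both of Bcat_KO. In the body of Csgalnact1, an enzyme of chondroitin sulfate synthesis (chr8:68556898-68557296), Bcat_KO had 12.2- and 9.08-fold and HOXA9_KO replicate 1 alone had 4.41-fold.

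The remaining strongest Bcat_KO-only regions fell into distal sites and a gene family on chromosome 5 described below. The distal site chr5:132884079-132884609 had 8.61- and 14.5-fold in Bcat_KO, 12.5- and 12.9-fold in HOXA9_KO and 4.92-fold in WT replicate 2. The site chr13:85724179-85724911 had 9.21- and 9.38-fold in Bcat_KO, 11.1- and 15.3-fold in HOXA9_KO and 7.14- and 5.78-fold in WT. The site chr2:147813507-147813773 had 10.8- and 9.97-fold in Bcat_KO, 6.83-fold in HOXA9_KO replicate 2 and 5.91-fold in WT replicate 2. At chr13:85724179-85724911, therefore, PRMT1_KO was the only paired group without a peak among the strongest 38981.

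Gene ends held 3 of the 65. Olfm4, a secreted glycoprotein of neutrophil granules, had its region over the start whose sequence is shown above (chr14:80000119-80000513), with 7.26- and 9.84-fold in Bcat_KO, 7.95- and 7.74-fold in HOXA9_KO and no peak in WT or PRMT1_KO. Gm9758 (chr5:14914435-14915122) and Speer4d (chr5:15623377-15623666) were the other two. Chosen after their values were seen, 3 more regions lay close to genes of known function. All 3 lost their call when peaks were ranked by fold, whereas 55 of the 65 members kept it. Near Jund, an AP-1 subunit (2.09 kb), Bcat_KO had 3.81- and 4.0-fold from 41 and 38 reads, and HOXA9_KO 2.37- and 2.55-fold. Near Odc1, the rate-limiting enzyme of polyamine synthesis (2.55 kb), Bcat_KO had 5.69- and 5.33-fold, WT 5.18- and 5.68-fold and HOXA9_KO 3.60- and 4.39-fold. Here the WT and Bcat_KO values overlapped and PRMT1_KO had no peak. Near Rmi2, part of the complex that dissolves recombination intermediates (3.32 kb), Bcat_KO had 6.05- and 6.97-fold and PRMT1_KO replicate 1 had 3.00-fold, outside its strongest 38981.

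Of the 43 regions open in PRMT1_KO only, 26 lay in gene bodies and 0 at a gene end. The strongest, chr6:114565417-114565712, was 77.4 kb from a gene and had 11.1- and 9.89-fold in PRMT1_KO and 8.79-fold in dKO. The site chr8:42210067-42210342 had 9.60- and 10.1-fold and no peak in any other library. The site chr6:24350861-24351248 had 8.51- and 9.14-fold, with 10.7-fold in HOXA9_KO replicate 2 and 7.99-fold in WT replicate 1. At chr8:97308248-97308789 PRMT1_KO had 8.45- and 8.24-fold and Bcat_KO replicate 2 a weak peak of 3.58-fold.

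Csf1r, the receptor for the macrophage growth factor CSF-1, was the gene of a fixed list that held a member (chr18:61120630-61120857, in the gene body). PRMT1_KO had 8.0- and 8.09-fold there, HOXA9_KO replicate 2 had 4.77-fold, and Bcat_KO and WT had no peak. The same region lies 35.6 kb from Pdgfrb, of the stromal list. As Csf1r marks monocytes and macrophages, the myeloid list is given beside it: 43 of its regions were shared by all 4 libraries, and 0 of these 43 ranked at least 1.5 times higher in either group. The part of other cells in the Csf1r peak was not tested.

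At several PRMT1_KO-only regions, WT had a peak of similar height. In the body of Gadl1, related to glutamate decarboxylases (chr9:116058887-116059369), PRMT1_KO had 7.84- and 9.11-fold, HOXA9_KO 7.57- and 9.06-fold and WT 8.68- and 9.19-fold. In the body of Slc35e1, a putative nucleotide sugar transporter (chr8:72485594-72486298), PRMT1_KO had 10.9- and 6.85-fold, HOXA9_KO 8.53-fold in both libraries and WT 6.22- and 7.04-fold. Bcat_KO was the only paired group without a peak at these 2 sites. In the body of Trps1, a GATA-type repressor (chr15:50840537-50840801), PRMT1_KO had 8.36- and 7.83-fold and WT 6.38- and 6.40-fold, whereas neither HOXA9_KO nor Bcat_KO had a peak.

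Other strong PRMT1_KO-only regions had mixed patterns. In Nrxn3, a synaptic adhesion gene (chr12:89962973-89963510), PRMT1_KO had 8.45- and 8.65-fold and WT 5.96- and 4.43-fold. In Gm5820 (chr18:38938760-38939559) PRMT1_KO had 7.45- and 6.82-fold and WT 7.12- and 5.89-fold. Near Neurod6, a neuronal transcription factor gene (29.6 kb; chr6:55710850-55711243), PRMT1_KO had 9.60- and 8.24-fold, WT 8.51- and 7.88-fold and HOXA9_KO replicate 2 had 4.55-fold. In all 3, WT had peaks in both libraries and Bcat_KO had none. In Vopp1 (chr6:57770393-57770835) PRMT1_KO had 8.22- and 7.48-fold, HOXA9_KO 5.26- and 4.72-fold and WT replicate 2 4.91-fold.

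Of genes named after their values were seen, Akna, an AT-hook gene of lymphoid and centrosome biology, had its region over the internal start shown above (chr4:63403213-63403762). PRMT1_KO had 4.80- and 4.18-fold, HOXA9_KO 4.94- and 3.96-fold and WT 3.09- and 4.78-fold, so the peak was open in every paired group but Bcat_KO. In Cd33, a sialic acid receptor of myeloid cells (chr7:43530351-43530836), PRMT1_KO had 5.45- and 7.38-fold and Bcat_KO replicate 1 had 2.99-fold. Near Pdcd1, which encodes the checkpoint receptor PD-1 (5.82 kb), PRMT1_KO had 6.88- and 8.09-fold and no other library had a peak. In Tbc1d9, PRMT1_KO had 7.88- and 8.65-fold, below the 10.0- and 12.6-fold of HOXA9_KO. Ranked by fold, the calls at Akna and Cd33 were lost and those at Pdcd1 and Tbc1d9 were kept, as were 35 of all 43.

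Most Bcat_KO-only regions were also open in HOXA9_KO, and most PRMT1_KO-only regions were not. The WT and HOXA9_KO libraries took no part in choosing the members. Of the 65 Bcat_KO-only regions, 35 (53.8%) were among the strongest 38981 of both HOXA9_KO libraries, 20 (30.8%) of 1 and 10 (15.4%) of neither. Of the 43 PRMT1_KO-only regions, 5 (11.6%) were in both HOXA9_KO libraries, 11 (25.6%) in 1 and 27 (62.8%) in neither. For comparison, of all regions among the strongest 19490 of both libraries of a mutant, 97.0% for Bcat_KO and 94.5% for PRMT1_KO were in both HOXA9_KO libraries. In WT the shares were closer: 17 (26.2%) of the Bcat_KO-only regions were in both libraries, 15 (23.1%) in 1 and 33 (50.8%) in neither, against 15 (34.9%), 14 (32.6%) and 14 (32.6%) of the PRMT1_KO-only regions. The WT lists are shorter and shallower than the others, and the shares over all strong regions in both WT libraries were 89.7% and 90.3%. Unlike the paired mutants, the WT libraries also had no peaks on chromosome Y below 90 Mb, as given below.

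By WT and HOXA9_KO at once, the members showed several patterns, and 15 Bcat_KO-only and 14 PRMT1_KO-only regions had a peak in 1 WT library alone. Of the Bcat_KO-only regions, 12 were in both WT and both HOXA9_KO libraries, so PRMT1_KO was the paired group without them; Odc1, Gnaz and Ier5l are among their nearest genes, and 6 of the 12 lie at Gm9758, Gm17019, Gm21190 or Speer4c on chromosome 5, with 3 of these nearest Gm21190. Another 15 were in both HOXA9_KO libraries and in neither WT library, among them the regions at Olfm4, Opcml, Cutc, Jund, Rmi2, Nup210 and Nav3. Of the PRMT1_KO-only regions, 0 had that pattern. Conversely, 7 PRMT1_KO-only regions were in both WT and in neither HOXA9_KO library (Nrxn3, Trps1, Gm5820, Lmo7, Baiap2l1, 1700028P14Rik and 1 without a gene within 50 kb), against 1 of the 65 Bcat_KO-only regions (Rttn). The regions in none of the WT and HOXA9_KO libraries numbered 8 for Bcat_KO, with Heatr3, Klhl7 and Pum3, and 11 for PRMT1_KO, with Pdcd1, Inpp4a, Med10 and B9d2. Over all strong regions of Bcat_KO and PRMT1_KO, 2.04% and 1.36% were in both HOXA9_KO and in neither WT library, and 0.171% and 0.663% in both WT and in neither HOXA9_KO library, so the same lean is present in the strong regions as a whole. The difference between the directions was not tested.

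The single dKO library had a peak at 13 of the 65 Bcat_KO-only regions, 20% (Wilson 95% interval 12.1 to 31.3), and at 2 of the 43 PRMT1_KO-only regions, 4.65% (1.28 to 15.5). Over all strong regions the shares were 45.4% and 44.0%. The dKO list is the shortest, with 10307 autosomal peaks, and the intervals cover counting error only and treat neighbouring regions as independent. Of the 13, 6 lie in the chromosome 5 segment described below, and without that segment the share was 7 of 57, 12.3% (6.08 to 23.2).

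**Figure D2:**
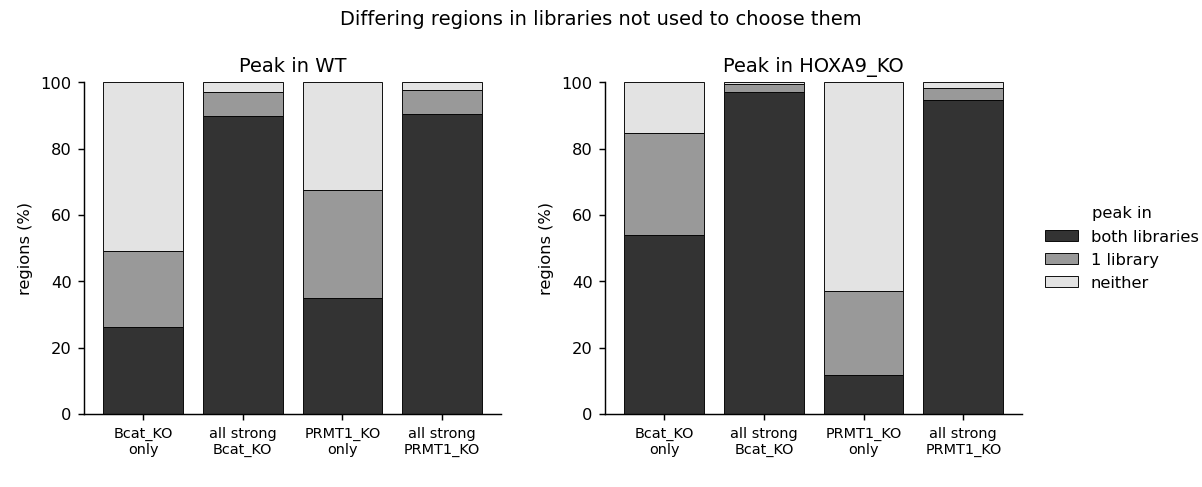
Share of regions with a peak among the strongest 38981 of both, 1 or neither library of WT (left) and HOXA9_KO (right), for the 65 Bcat_KO-only and 43 PRMT1_KO-only regions and for all strong regions of each mutant. Both HOXA9_KO libraries held 53.8% of the Bcat_KO-only and 11.6% of the PRMT1_KO-only regions, against 97.0% and 94.5% of all strong regions.

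A cluster of members lay in a segment of chromosome 5, chr5:14914435-15712307, which holds genes of the Speer family, a rodent family expressed in testis, and related predicted genes (Gm9758, Speer4e, Gm10354, Gm17019, Gm21149, Gm21190, Gm21083, Speer4d and Speer4c). It held 8 Bcat_KO-only regions, 0 PRMT1_KO-only regions and 0 shared regions among 150 regions. The libraries had 107 and 88 peaks there in Bcat_KO, 3 and 14 in PRMT1_KO, 50 and 58 in HOXA9_KO, 75 and 65 in WT and 22 in dKO, counting the strongest 38981 of each list. PRMT1_KO was thus the group with few peaks, below each other library including dKO. In the 2 Mb before the segment the counts were 11 and 10 in Bcat_KO and 5 and 7 in PRMT1_KO, and in the 2 Mb after it 15 and 21 against 15 and 17.

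The members of this segment were strong in several groups. At Gm9758 Bcat_KO had 7.02- and 8.35-fold, HOXA9_KO 3.53- and 4.55-fold, WT 6.42- and 6.37-fold and dKO 6.76-fold. Near Gm21190 (chr5:15552411-15552695) Bcat_KO had 7.74- and 8.06-fold, HOXA9_KO 7.60- and 6.07-fold, WT 6.65- and 5.46-fold and dKO 5.24-fold. In Speer4c (chr5:15711740-15712307) Bcat_KO had 9.19- and 8.63-fold, HOXA9_KO 6.54- and 5.01-fold and WT 5.76- and 5.82-fold. These 3 had peaks in both libraries of every paired group except PRMT1_KO. At a gene end of Speer4d Bcat_KO had 8.61- and 11.5-fold and HOXA9_KO replicate 2 had 12.3-fold, with none in WT. The genes of this segment are near-identical copies, so reads can be placed on more than one of them; no filter for repeats was applied, and its part in these counts was not tested. Without the segment, 57 Bcat_KO-only and 43 PRMT1_KO-only regions were left.

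A scan of all autosomes for such segments, chosen after this one was seen, counted peaks in windows of 1 Mb. Of 1444 windows with at least 10 peaks in both Bcat_KO libraries, 2 had at least 2 times the larger PRMT1_KO count in both, and both overlap this segment. In the window from 14 Mb the counts were 30 and 25 in Bcat_KO against 2 and 6 in PRMT1_KO, and in the window from 15 Mb 86 and 73 against 4 and 14. Of 1430 windows with at least 10 peaks in both PRMT1_KO libraries, 0 had at least 2 times the Bcat_KO count.

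**Figure D3:**
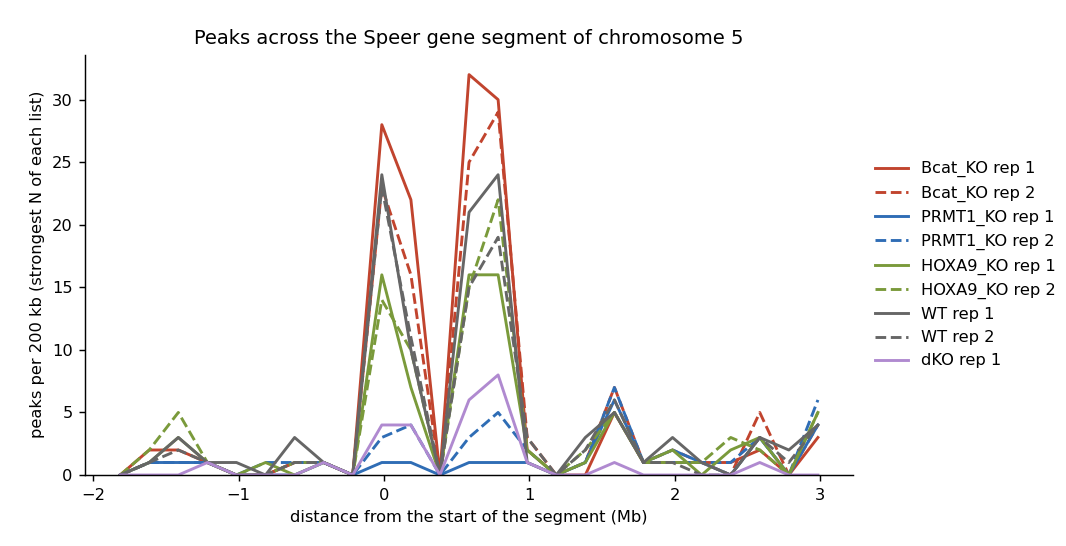
Peaks per 200 kb among the strongest 38981 of each list, by distance in Mb from the start of the chromosome 5 segment, with 1 line per library (solid, replicate 1; dashed, replicate 2). Over the whole segment the Bcat_KO libraries had the most peaks, 107 and 88, and the PRMT1_KO libraries the fewest, 3 and 14, although single bins of Bcat_KO and WT or of PRMT1_KO and dKO overlap, whereas outside it the lines of the paired groups lie close together.

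Few members lay at gene ends (starts or finishes), and the members were unevenly spread over the chromosomes. Of the Bcat_KO-only regions, 3 (4.62%) lay within 1 kb of a gene end, 28 (43.1%) in gene bodies, 20 (30.8%) within 50 kb and 14 (21.5%) beyond. Of the PRMT1_KO-only regions, 0, 26 (60.5%), 7 (16.3%) and 10 (23.3%) did. Among all regions 23.1% lay at gene ends, among shared regions 39.8%, and among strong regions of Bcat_KO and PRMT1_KO 48.6% and 47.8%. Both directions therefore had a smaller share of gene ends than any of these sets. Chromosome 8 held 14 of the 108 members (13%, against 5.36% of all regions; 5 in Bcat_KO and 9 in PRMT1_KO), chromosome 5 held 13 (12% against 6.60%; 11 and 2) and chromosome 6 held 12 (11.1% against 5.99%; 5 and 7). Of the 13 on chromosome 5, 8 lie in the segment described above. Chromosome 11, with 6.03% of all regions, held 0. No member lay at a targeted gene: the nearest were Gadl1, 4.87 Mb from Ctnnb1, and Cd33, 1.45 Mb from Prmt1. Within 5 Mb of Prmt1, 370 regions included 4 shared regions ranked at least 1.5 times higher in Bcat_KO and 8 in PRMT1_KO. The shifted regions at Pold1, Zfp473 and Zfp719 are among them. Within 5 Mb of Ctnnb1, 295 regions included 1 and 0, and within 5 Mb of Hoxa9, 329 included 3 and 4. Over all 62929 regions the counts were 488 and 593. The part of closeness to Prmt1 in these shifts was not tested.

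The targeted genes kept their peaks at the gene ends in both mutants. At Ctnnb1 (chr9:120933213-120934079) Bcat_KO had 9.19- and 8.77-fold and PRMT1_KO 8.60- and 10.7-fold. At Prmt1 (chr7:44986242-44987166) Bcat_KO had 15.9- and 16.9-fold and PRMT1_KO 16.2- and 17.6-fold. The groups overlapped at both genes. Since the labels do not say which part of either gene was removed, these peaks do not check the labels.

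The strongest shared sites were the same in all 4 libraries and mostly had no gene within 50 kb. The first, chr2:98666248-98667327, ranked 1 in each, with 28.1- and 29.9-fold in Bcat_KO and 26.5- and 28.6-fold in PRMT1_KO. A site 29.3 kb from Rpusd4 (chr9:35305219-35305591) had 53.1- and 57.6-fold against 51.0- and 54.5-fold. A site at chr12:3109870-3110115 had 65.2- and 69.9-fold against 61.8- and 67.3-fold. The others of the strongest 10 were a site in the body of Chl1, 1 on chromosome 14, 4 near the start of chromosome 9 and a neighbour of the first. Their ranks were nearly the same in the HOXA9_KO, WT and dKO libraries. No filter for repeats was applied, and the part of repeated sequence in these 10 peaks was not tested. They are therefore given as the highest peaks only. Among gene ends, chosen after their values were seen, Hjurp, the chaperone of centromeric histone CENP-A, had 17- and 19.5-fold in Bcat_KO and 18.7- and 17.8-fold in PRMT1_KO, which overlap.

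Within the shared regions the ranks of the groups were compared by a rule added after the data were seen. Both Bcat_KO ranks stood above both PRMT1_KO ranks in 4858 of 25617 (19.0%), and the reverse held in 5222 (20.4%). A rank at least 1.5 times higher in both libraries of a group was found for 488 regions (1.90%) in Bcat_KO and 593 (2.31%) in PRMT1_KO, and at least 2 times higher for 81 (0.316%) and 56 (0.219%). Ranked by fold enrichment instead, 413 of the 488 (84.6%) and 442 of the 593 (74.5%) kept their call. A rank by p-value follows both the height and the number of reads of a peak.

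**Figure D4:**
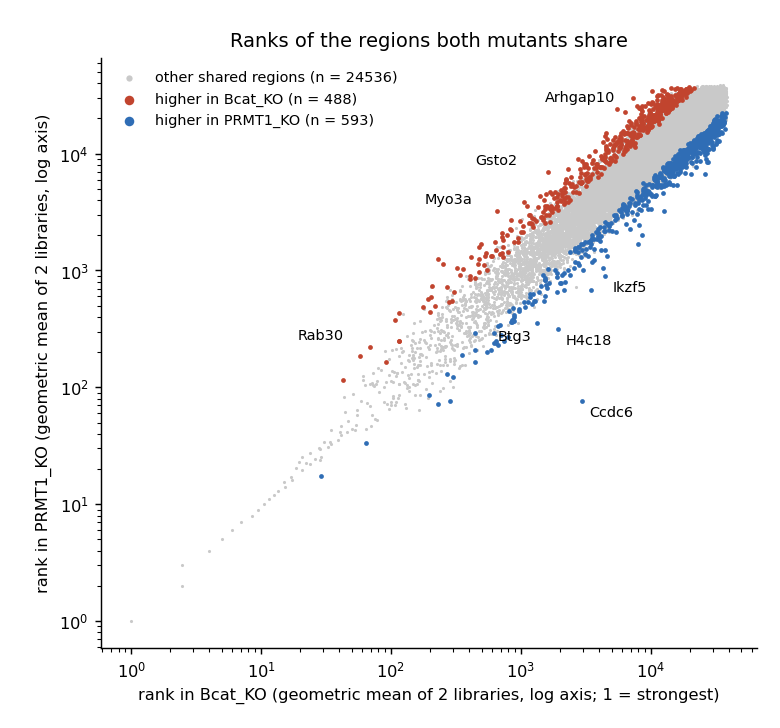
Rank of each of the 25617 shared regions in Bcat_KO (horizontal) and PRMT1_KO (vertical), as geometric means of 2 libraries on log axes where 1 is the strongest; red and blue mark the 488 and 593 regions that ranked at least 1.5 times higher in Bcat_KO or PRMT1_KO. Most regions lie along the diagonal, and Ccdc6 lies farthest from it on the PRMT1_KO side.

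Ccdc6, a coiled-coil gene known as a fusion partner of the Ret kinase, had the largest rank shift of the shared regions. The region covers its start (chr10:70096610-70097586), whose GC-rich sequence is shown above. It ranked 4265 and 2035 in Bcat_KO and 86 and 68 in PRMT1_KO. The fold enrichment was 10.1 and 13.9 in Bcat_KO (12 ± 2.68, SD, n = 2), 18.4 and 20.1 in PRMT1_KO (19.3 ± 1.18), 11.5 and 10.6 in HOXA9_KO, 9.94 and 9.15 in WT and 5.72 in dKO. Both PRMT1_KO libraries were above all others. The summits held 55 and 74 reads in Bcat_KO, 190 and 180 in PRMT1_KO, 65 and 57 in HOXA9_KO and 68 and 45 in WT. Divided by the background depth of each library, these were 5.72 and 7.54 in Bcat_KO, 16.9 and 16.5 in PRMT1_KO, 7.86 and 6.57 in HOXA9_KO and 9.21 and 7.16 in WT, so PRMT1_KO was also the highest of the paired groups after division by depth. The worse of its PRMT1_KO ranks was 23.7 times higher than the better of its Bcat_KO ranks, and 7.60 times higher when peaks were ranked by fold.

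The next shifts towards PRMT1_KO were smaller and lay at genes of varied function. Near Acss1, a mitochondrial acetyl-CoA synthetase (5.56 kb; chr2:150673795-150674449), Bcat_KO had 8.36- and 9.09-fold, PRMT1_KO 12.9- and 13.3-fold, HOXA9_KO 6.48- and 5.72-fold and WT 9.77- and 11.0-fold. At Ikzf5, an Ikaros family zinc finger gene (chr7:131409972-131410894), Bcat_KO had 11.7- and 14.6-fold and PRMT1_KO 20.3- and 18.9-fold. At H4c18, a histone H4 gene (chr13:21831332-21832428), Bcat_KO had 21.5- and 18.7-fold and PRMT1_KO 29.0- and 30.6-fold. In each of the 3 the libraries of the mutants did not overlap, which the rank rule that chose the regions largely fixes in advance. At Btg3, an antiproliferative gene whose TCF/LEF letters are shown above, Bcat_KO had 11.4- and 12.8-fold and PRMT1_KO 13.8- and 15.7-fold. The Btg3 call was lost when peaks were ranked by fold. In Mef2c, a MADS-box factor of myeloid and lymphoid cells (chr13:83608927-83609781), Bcat_KO had 11.1- and 11.6-fold and PRMT1_KO 14.9- and 15.7-fold. At Pbx4, a homeobox cofactor gene, Bcat_KO had 11.8- and 8.97-fold, PRMT1_KO 15.1- and 16.8-fold and HOXA9_KO 17.3- and 16.2-fold, so there HOXA9_KO lay with PRMT1_KO. Unlike at Ccdc6, PRMT1_KO did not stand above WT at these genes after division by background depth. Both WT libraries were above both PRMT1_KO libraries at Acss1 (9.08 and 8.91 against 8.65 and 8.53), H4c18 (10.7 and 10.3 against 10.1 and 9.27) and Btg3 (15.3 and 15.3 against 14.6 and 13.3). At Ikzf5, Mef2c and Pbx4 the values of WT and PRMT1_KO overlapped. The other gene ends ranked at least 2 times higher in PRMT1_KO included Hspa8 and Dnaja2, which encode an Hsp70 chaperone and its cochaperone, Ran, the GTPase of nuclear transport, Aebp2, a cofactor of Polycomb complex PRC2, and Slc30a1, a zinc exporter.

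Towards Bcat_KO, the largest shift lay in the body of Arhgap10, which had 2 such regions. At chr8:77451499-77452083 Bcat_KO had 12.4- and 12.3-fold, PRMT1_KO 5.87- and 6.18-fold, HOXA9_KO 4.72- and 4.70-fold and WT 4.68- and 4.22-fold. The Bcat_KO summits held 41 and 39 reads there, and no other paired library held more than 15. At chr8:77483453-77484292 Bcat_KO had 15.5- and 16.2-fold, PRMT1_KO 12.1- and 12.9-fold, HOXA9_KO 5.98- and 8.39-fold and WT 9.34- and 10.1-fold. Bcat_KO was the highest of the paired groups at both regions.

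Other shifts towards Bcat_KO showed other orders. Beside Gsto2, an omega-class glutathione transferase (0.954 kb), Bcat_KO had 13.8- and 13.6-fold, PRMT1_KO 10.6- and 9.15-fold, HOXA9_KO 9.83- and 12.2-fold and WT 10.1- and 8.54-fold. At Zfp964, a zinc finger gene, Bcat_KO had 15.7- and 18.7-fold, PRMT1_KO 11.5- and 10.8-fold, HOXA9_KO 14.1- and 12.9-fold and WT 7.37- and 9.62-fold. In Maml2, a Notch coactivator (chr9:13681571-13682040), Bcat_KO had 19.5- and 18.9-fold, PRMT1_KO 14.2- and 14.4-fold, HOXA9_KO 16.7- and 17.1-fold and WT 10.7- and 12.4-fold. By fold, which is not normalized between libraries, WT was the lowest of the paired groups at Zfp964 and Maml2. The dKO fold was lower still, at 5.31 and 7.83. The ranks gave another order. At Zfp964 WT ranked 12000 and 6814 and dKO 5726, against 8727 and 9119 in PRMT1_KO. At Maml2 WT ranked 6747 and 4162 and dKO 1938, against 4460 and 4612 in PRMT1_KO. So by rank WT overlapped PRMT1_KO at both, and dKO, whose list is the shortest, stood above it. In Myo3a, a class III myosin gene, HOXA9_KO had 33.7- and 34.3-fold and WT 29.6- and 29.9-fold, above both Bcat_KO (23.9 and 27.2) and PRMT1_KO (16.3 and 20.8). At a gene end of Rab30, which encodes a Golgi GTPase, the fold differed little, with 21.3 and 22.8 in Bcat_KO and 19.3 and 20.3 in PRMT1_KO.

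**Figure D5:**
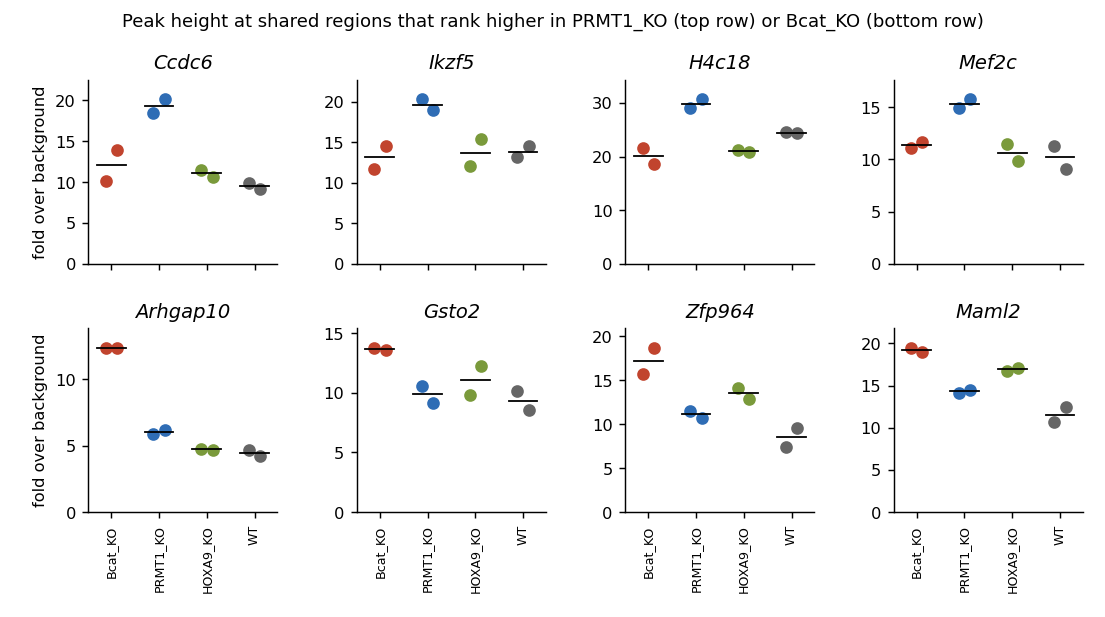
Fold over local background at 8 shared regions, Ccdc6, Ikzf5, H4c18 and Mef2c (top, ranked higher in PRMT1_KO) and Arhgap10, Gsto2, Zfp964 and Maml2 (bottom, ranked higher in Bcat_KO), each dot a library and each black line the mean of 2. At Ccdc6 the PRMT1_KO libraries (18.4 and 20.1) lie above all others, and at Arhgap10 the Bcat_KO libraries (12.4 and 12.3) do.

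The ranks of HOXA9_KO and WT at these regions are given as a description, since the regions were chosen for a low rank in one mutant. Of the 488 regions higher in Bcat_KO, both HOXA9_KO ranks were above both PRMT1_KO ranks in 370 (75.8%, against 21.9% of all shared regions) and both WT ranks in 195 (40% against 20.5%). In 217 (44.5% against 26.0%) both HOXA9_KO ranks were below both Bcat_KO ranks, and in 359 (73.6% against 28.8%) both WT ranks were. Of the 593 higher in PRMT1_KO, both HOXA9_KO ranks were below both PRMT1_KO ranks in 515 (86.8% against 29.8%) and both WT ranks in 356 (60% against 29.2%). In 189 (31.9% against 17.7%) both HOXA9_KO ranks were above both Bcat_KO ranks, and in 339 (57.2% against 22.2%) both WT ranks were. HOXA9_KO and WT libraries also differ in depth and list length, and WT lacked the chromosome Y peaks of the paired mutants.

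Genes of Wnt signalling and of the Prmt family held no differing region, and few of their shared regions moved in rank. Of 81 shared regions within 50 kb of 25 autosomal Wnt genes, 2 (2.47%) ranked at least 1.5 times higher in Bcat_KO and 2 (2.47%) in PRMT1_KO, beside 1.90% and 2.31% of all shared regions. In the body of Axin2, a feedback target of Wnt signalling, Bcat_KO had 7.06- and 7.28-fold and PRMT1_KO 10.6- and 9.41-fold. Of the Wnt coreceptors, Lrp5 had 7.96- and 5.95-fold in Bcat_KO and 4.12- and 3.97-fold in PRMT1_KO, a call lost when peaks were ranked by fold, and a region 31.8 kb from Lrp6 had 9.91- and 11.2-fold against 8.38- and 6.37-fold. The region 40.7 kb from Nkd1, another feedback inhibitor of Wnt signalling, is at a gene end of Snx20. It had 5.89- and 6.29-fold in Bcat_KO against 9.76- and 9.05-fold in PRMT1_KO. The libraries of the mutants did not overlap at any of these 4, which the rank rule that chose the regions largely fixes in advance. Of 27 shared regions at Prmt genes, 1 ranked higher in Bcat_KO, at a gene end of Prmt5, the main enzyme of symmetric arginine dimethylation. There Bcat_KO had 17.3- and 17.8-fold and PRMT1_KO 14.1- and 15.6-fold. None of 33 shared regions at Hox genes and cofactors moved by this rule.

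DNA damage and replication genes, which the series as a whole addresses, were taken as further lists. Of 73 shared regions at p53 and DNA damage genes, 3 (4.11%) ranked higher in Bcat_KO and 4 (5.48%) in PRMT1_KO, and of 104 at replication genes, 3 (2.88%) and 5 (4.81%), beside 1.90% and 2.31% of all shared regions. Within the body of Lig4, the ligase of end joining, Bcat_KO had 18.2- and 19.3-fold and PRMT1_KO 14- and 15.8-fold. Near Gadd45a, a damage-induced gene (18.6 kb), Bcat_KO had 4.06- and 5.36-fold and PRMT1_KO 7.11- and 7.20-fold. Near Atr, the kinase of replication stress (1.20 kb, at a gene end of Xrn1), Bcat_KO had 11.6- and 11.3-fold and PRMT1_KO 16.0- and 14.4-fold. In Mcm5, a subunit of the replicative helicase, Bcat_KO had 6.47- and 6.67-fold and PRMT1_KO 8.94- and 9.84-fold, and in Pold1, the catalytic subunit of DNA polymerase delta, 5.51- and 5.94-fold against 7.73- and 7.68-fold. In each of these the libraries of the mutants did not overlap, which the rank rule that chose the regions largely fixes in advance. At the Mcm6 gene end the fold differed less, with 14.6 and 14.5 against 15.9 and 16.9. That call was lost when peaks were ranked by fold, as were those of Pmaip1 and of the region over a gene end of Gins1. The remaining calls of both lists were kept by fold. Higher in Bcat_KO were regions 40.4 kb from Mcm2, 20.4 kb from Rpa2 and at Orc4. So were regions 46.5 kb from Xrcc4 and 47.9 kb from Fancd2. Near Mcm2, Bcat_KO had 7.95- and 8.71-fold and PRMT1_KO 5.32- and 5.93-fold. Higher in PRMT1_KO were regions 14.3 kb from Ccng1 and 4.45 kb from Gins1.

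At stem cell and lineage genes, few regions moved, as few did over all shared regions (1.90% and 2.31%). Of 110 shared regions at LSK genes, 1 (0.909%) ranked higher in Bcat_KO and 2 (1.82%) in PRMT1_KO. One of these lay in Runx1, a master factor of blood formation, with 4.74- and 5.42-fold in Bcat_KO and 8.35- and 7.11-fold in PRMT1_KO. The Bcat_KO call lay 32.9 kb from Lyl1, in the body of Nfix, with 11.4- and 11.8-fold against 8.21- and 7.77-fold. In Vwf, a marker of megakaryocytes and platelet-biased stem cells, Bcat_KO had 13.6- and 14.3-fold and PRMT1_KO 9.54- and 10.1-fold. No shared region of the myeloid (43), B lymphoid (25), T and NK (24), mast cell and eosinophil (10) or dendritic (40) lists moved. The other lists gave 2 of 22 erythroid regions (9.09%) higher in Bcat_KO, of which the one near Epor was lost by fold, 1 of 30 megakaryocyte regions in each direction (Vwf, and Nfe2 in PRMT1_KO, a call lost by fold), 1 of 17 stromal regions in Bcat_KO (21.0 kb from Col1a2) and 1 of 20 interferon regions in PRMT1_KO (at Mx1).

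Promoter sequences could be compared for the shifted regions. Of 10236 RefSeq promoters in shared regions, 190 lay in regions higher in Bcat_KO and 210 in regions higher in PRMT1_KO. Their median GC was 60.2% and 64.3%, against 62.3% for all promoters in shared regions and 57.0% for all promoters. The TCF/LEF letters were in 7 of 190 (3.68%) and 1 of 210 (0.476%), against 2.23% in shared regions and 3.26% of all promoters, the 7 being the sites of 6 genes shown above, since Zfp473 has 2 overlapping promoters. The YY1 letters AAGATGGCG were in 10 of 190 (5.26%) and 1 of 210 (0.476%), against 3.35% in shared regions. The NF-Y letters CCAAT were in 47.4% and 40.0%, against 38.5%, the SP/KLF letters in 65.3% and 66.7%, against 69.6%, and the E-box in 11.6% and 11.0%, against 10.8%. Both strands were searched, no motif contains another, and 12 motifs were searched in all. These are shares of small sets of letters and not binding sites, and they were not tested.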

How the data were processed

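Open chromatin of mouse LSK cells was mapped by ATAC-seq, and 4 of 9 libraries were compared, with the other 5 as references that did not choose regions. Per the submitters' processing notes, the authors used Bowtie2 2.4.2, SAMtools 1.14, Picard 2.27.4 and MACS2 (version not given in the sources used here) with GRCm38/mm10. Peaks were called per library. Each deposited list gave, for each peak, a score (10 times the −log10 q-value, cut to a whole number), the authors' fold enrichment at the summit over the local background, and the −log10 p-value and −log10 q-value. These deposited values are not normalized between libraries, so they were used to rank and describe peaks within 1 list. The deposited summit offset served one alternative only.

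From these, peaks were merged, ranked by −log10 p and cut to equal length with Python 3.11.15, numpy 2.4.6, pandas 2.3.3 and scipy 1.17.1, and drawn with matplotlib 3.10.9. Fold and p together gave the reads at each summit, whole within 0.01 for 100% of peaks in 8 libraries. The background at the floor of a list, divided by its shortest peak, gave the depth in reads per kb, an inferred value. Genes and promoters came from RefSeq (GRCm38.p6), and 16457 of 20665 autosomal protein-coding genes (79.6%) had a promoter sequence. No genome sequence was used. A peak missing from a list may be undetectable at that depth, and 2 libraries limit the precision of each group value. Whether replicates are biological is not given.

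Named are the 12 strongest regions of each direction, regions at gene ends, members near genes of the 15 lists, the strongest 10 shared regions and the targeted genes; other names were chosen after their values were seen. The members and the lists were chosen with earlier results of these data known. The merging, ranking and calling steps were tested on simulated data. Alternatives were the ranking value, list length, thresholds, merging, chromosomes and libraries.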

Additional observations from a re-analysis of the deposited data

Results flagged for a closer look

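Chromosome Y below 90 Mb, which lies outside the autosomes compared, held 13 and 12 peaks in the Bcat_KO libraries and 12 and 12 in the PRMT1_KO libraries, against 0 and 0 in the WT libraries. HOXA9_KO had 15 and 16. The mutants compared here therefore overlapped in this measure, and WT, used above as a reference, differed from both and from HOXA9_KO. This part of chromosome Y is male-specific, so WT and mutant cells may differ in sex, which was not tested. The comparisons with WT above may hold this difference.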

How the results depend on the processing

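No paired analysis was possible because the counts come from no test and the replicate numbers are not stated to mark a shared mouse or day. Counts are given as Bcat_KO only and PRMT1_KO only. Ranking by fold (89 and 62), merging at 100 bp, summits with 250 bp on either side (93 and 56), all chromosomes (66 and 41) and absence from the full lists (63 and 36) stayed within 1.5 times of 65 and 43. The counts moved to 21 and 11 with a −log10 q-value of at least 5, to 21 and 11 when cut to the shortest of 8 lists, to 1979 and 1750 with the lists as deposited, to 1607 and 1857 when open meant the strongest 38981, where the order turned, and to 2 and 0 with the strongest 9745. Leaving out 1 library gave 199 to 266 and 121 to 223, with fewer Bcat_KO-only than PRMT1_KO-only regions without PRMT1_KO replicate 1 (199 and 223) or replicate 2 (208 and 222), so the larger Bcat_KO count depends on these settings. Shared regions stayed between 19421 and 28593. Of the members, 55 and 35 were kept under fold ranks and 13 and 3 with the stricter q-value. Added after seeing the data, leaving out the chromosome 5 segment gave 57 and 43, and leaving out regions under 200 bp gave 60 and 40. Gene ends within 2 kb gave 7 and 1 members in place of 3 and 0. Shifted shared regions, 488 and 593, became 654 and 757 under fold ranks and 1590 to 1957 and 1923 to 1939 without 1 library. The Ccdc6 ratio ran from 23.7 to 49.6 without 1 library, highest without Bcat_KO replicate 2. The causes were not tested.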

Other observations

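Neighbouring regions could move in opposite directions. In the histone cluster of chromosome 13, a gene end of H4c17 (chr13:21811503-21812658) ranked higher in Bcat_KO. It had 25.6- and 23.7-fold there against 17.3- and 18.1-fold in PRMT1_KO. A gene end of H4c18 ranked higher in PRMT1_KO instead. At H4c17, HOXA9_KO (26.1 and 26.0) lay with Bcat_KO and WT (13.6 and 11.3) lay below PRMT1_KO. At H4c18, WT (24.6 and 24.3) lay between the mutants by fold and HOXA9_KO (21.2 and 20.8) lay with Bcat_KO. Divided by background depth, WT (10.7 and 10.3) lay above PRMT1_KO (10.1 and 9.27) there. Histone H4 genes are near-identical copies, and the part of reads placed on the wrong copy was not tested.

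Mef2c also had a region in each direction. A second region of its body (chr13:83571909-83572670), among the strongest of the shared sites, had 21.5- and 23.7-fold in Bcat_KO and 18.3- and 20-fold in PRMT1_KO, with 19.9- and 19.1-fold in HOXA9_KO and 16.3- and 13.8-fold in WT. Of signalling receptors outside the lists, a region in the body of Smo, the Hedgehog signal transducer, ranked higher in Bcat_KO, with 23.0- and 23.9-fold against 18.3- and 19.7-fold. These regions were chosen after their values were seen.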
